A study of Saccharomyces cerevisiae with 4 samples.

Results

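Hsp90 is the ATP-driven chaperone that completes the folding of kinases, transcription factors and other clients in the cytosol. The genes described here encode both Hsp90 proteins of budding yeast and 8 co-chaperones that bind Hsp90 during its cycle. They were taken as the single-gene array probes for HSP82, HSC82, STI1, AHA1, HCH1, CPR6, CPR7, SBA1, CDC37 and CNS1. All 10 genes had 1 probe each and were measured on every array, out of 5477 genes with a single-gene probe and 5403 genes measured on every array.

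Total RNA of Saccharomyces cerevisiae was hybridised to 4 arrays with 2 colours each. On 2 celastrol arrays, cells given 10 µM celastrol in DMSO for 1 h were set against cells given an equal volume of DMSO for 1 h. On 2 heat shock arrays, cells held at 39 °C for 30 min were set against cells held at 30 °C for 30 min. Celastrol is a triterpenoid from a medicinal vine, and the comparisons ask how the drug's effect on transcripts stands beside that of heat. The labels give no mutation or transgene for any sample, and which strain was used, and how it was grown, is not stated there. Each treatment was done as a pair of separate experiments, per the series' design text.

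Values are log2 ratios, treated over control, read on single arrays, so 1 unit is a doubling. "Rose" and "fell" are used for genes with a limma adjusted p under 0.05 in a fit over all 5403 genes. Dose and duration differ between the treatments by design, so a difference between them belongs to these doses and times. The treated sample carried Cy5 and its control Cy3 on every array. A dye effect of a probe therefore adds to both treatments, and its part in the ratios was not tested. The base of the logarithm could be read from heat shock replicate 1 and was taken to be the same on the other arrays.

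The Hsp90 cycle runs from an open dimer that receives a client from Hsp70 to a closed, ATP-bound dimer that releases it. Co-chaperones act at different steps: some load clients, some start ATP hydrolysis, and some hold the closed form. In yeast, Hsp90 genes and several co-chaperone genes are targets of the heat shock factor Hsf1, which is itself held in check by chaperones. In mammalian cells, celastrol has been reported to disturb the contact between Hsp90 and Cdc37.

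Transcripts of Hsp90, the ATPase activator AHA1 and the cyclophilin CPR6 rose after either treatment, and SBA1 rose after celastrol. Heat shock also raised STI1 and HCH1. After celastrol, 5 of the 10 genes rose and 0 fell, while 3.85% of all genes rose. After heat shock, 6 of 10 rose and 0 fell, while 4.28% of all genes rose. The median log2 ratio of the 10 genes was 1.16 after celastrol and 1.36 after heat shock, while the median over all genes was −0.11 after celastrol and 0.0048 after heat shock. Centring each array on its median would therefore raise celastrol ratios by about that amount.

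These calls rest on few arrays. With either celastrol array left out, every limma call after celastrol and after heat shock was lost, among the 10 and among all genes. The spread then comes from the heat shock arrays alone. A fit of only the heat shock arrays likewise called 0 genes after heat shock. With the replicate number as a block, 65 genes were called after celastrol and 30 after heat shock. Among the 10, only HSP82 after either treatment and CPR6 after heat shock then stayed called. With either heat shock array left out, CDC37, HCH1 and STI1 joined the genes called after celastrol, while calls over all genes also became more numerous. Such fits leave 1 array in a treatment, and their calls are not read as a result about the 10 genes. Read on single arrays, the median log2 ratio of the 10 genes was 0.88 and 1.36 after celastrol and 1.54 and 1.44 after heat shock. The median over all genes was −0.097 and −0.14 after celastrol and 0.037 and −0.048 after heat shock.

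**Figure D1:**
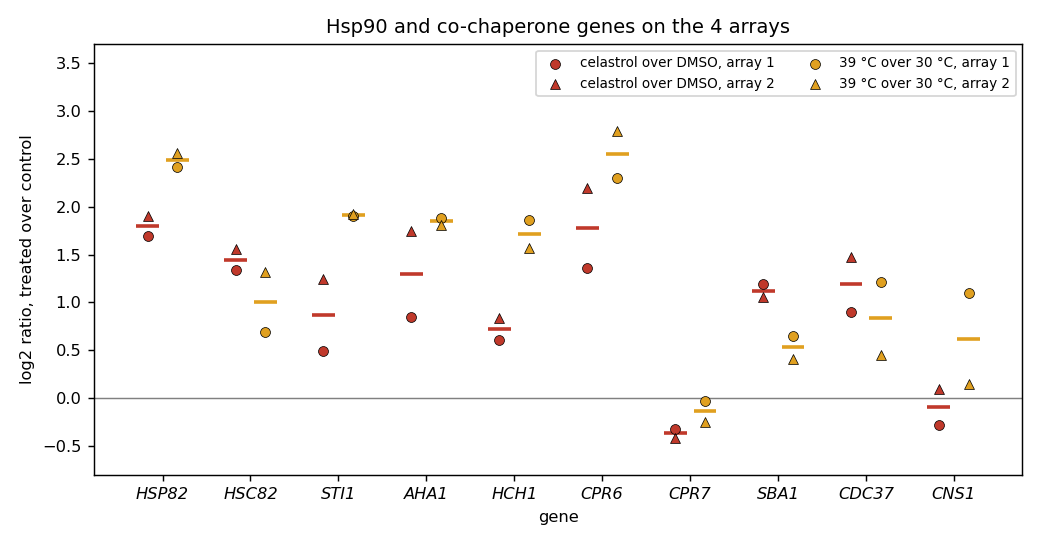
Log2 ratio of treated over control (vertical axis) for each of the 10 genes (horizontal axis), with celastrol arrays left and heat shock arrays right for each gene; circles are replicate 1, triangles replicate 2, and bars the mean of 2 arrays. HSP82 and CPR6 stand highest after heat shock at 2.49 and 2.55, and CPR7 lies below 0 on all 4 arrays.

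HSP82 (YPL240C) encodes the Hsp90 that is strongly stress-inducible. HSP82 had log2 ratios of 1.69 and 1.90 on the celastrol arrays and of 2.42 and 2.56 on the heat shock arrays. All 4 values were high, and the celastrol arrays lay below the heat shock arrays with no overlap. The mean of 1.80 ± 0.15 after celastrol (SD, n = 2 arrays) is a 3.47-fold rise, and the mean of 2.49 ± 0.10 after heat shock (SD, n = 2) is a 5.61-fold rise. The limma adjusted p was 0.0111 after celastrol and 0.00943 after heat shock. Ranked by the mean ratio among 5403 genes, HSP82 stood at place 68 after celastrol and at place 27 after heat shock.

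HSC82 (YMR186W) encodes the nearly identical Hsp90 that is abundant without stress. HSC82 had log2 ratios of 1.34 and 1.55 after celastrol and of 0.70 and 1.32 after heat shock. The celastrol arrays were alike and just above the higher heat shock array, while the heat shock arrays stood apart from each other. HSC82 rose 2.73-fold after celastrol (1.45 ± 0.15, SD, n = 2; limma adjusted p = 0.0290) and 2.01-fold after heat shock (1.01 ± 0.44, SD, n = 2; limma adjusted p = 0.0494). Its heat shock call lay close to the threshold and was lost without heat shock replicate 2 (ratio 0.70, adjusted p = 0.0601) and with median-centred arrays (adjusted p = 0.0554). It was also lost with exact zeros kept as values (0.0554), a robust prior (0.0504) and array weights (0.0791; all limma adjusted p). The replicate number as a block (0.0959) and the heat shock arrays alone (0.147; both limma adjusted p) lost it as well. HSC82 stood at place 106 after celastrol and at place 238 after heat shock.

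The pair therefore moved by unequal amounts under heat and by more similar amounts under the drug. The ratio of HSP82 exceeded that of HSC82 by 0.35 on each of the celastrol arrays, and by 1.72 and 1.24 on the heat shock arrays. On average the gap was 0.35 log2 units after celastrol and 1.48 ± 0.34 (SD, n = 2) after heat shock. The gap was smaller by 1.13 after celastrol than after heat shock, and the arrays did not overlap. With 2 arrays against 2, the smallest p an exact two-sided permutation test can give is 0.333, so that test cannot reach the threshold, and the gap is given as a description. Transcripts of these near-identical genes can hybridise to each other's probes, which would make the separate ratios of HSP82 and HSC82 uncertain, and the measured gap with them.

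**Figure D2:**
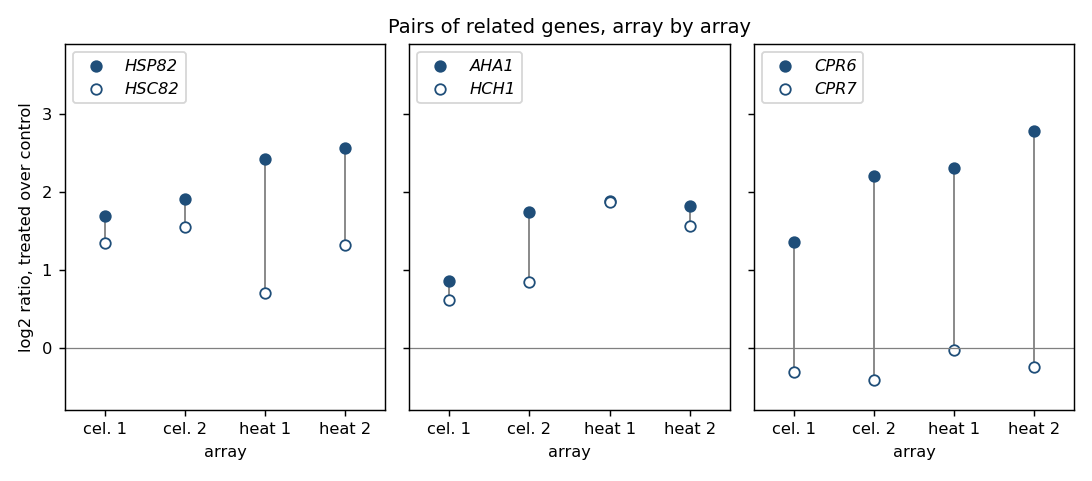
Log2 ratio of treated over control (vertical axis) on each array (horizontal axis; cel. for celastrol, heat for heat shock) for 3 pairs of related genes, with the gap on an array drawn as a grey line. The gap between HSP82 and HSC82 is 0.35 on each celastrol array and 1.72 and 1.24 on the heat shock arrays, and CPR6 lies above CPR7 on all 4 arrays.

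AHA1 (YDR214W) encodes the main activator of the Hsp90 ATPase. AHA1 had log2 ratios of 0.85 and 1.74 after celastrol and of 1.88 and 1.81 after heat shock. The heat shock arrays were almost equal, and celastrol replicate 2 lay close below them while celastrol replicate 1 was lower. AHA1 rose 2.46-fold after celastrol (1.30 ± 0.63, SD, n = 2; limma adjusted p = 0.0483) and 3.60-fold after heat shock (1.85 ± 0.048, SD, n = 2; limma adjusted p = 0.0204). The celastrol call was lost when exact zeros in the table were kept as values (limma adjusted p = 0.0556). It was also lost with the replicate number as a block (limma adjusted p = 0.109).

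HCH1 (YNL281W) encodes a smaller protein related to the N-terminal domain of Aha1, first found as a multicopy suppressor of an Hsp90 mutant. HCH1 had log2 ratios of 0.61 and 0.84 after celastrol and of 1.87 and 1.57 after heat shock. Every celastrol value was well below every heat shock value. Its mean of 0.72 ± 0.16 after celastrol (SD, n = 2) had a limma adjusted p of 0.0681. HCH1 rose 3.29-fold after heat shock (1.72 ± 0.21, SD, n = 2; limma adjusted p = 0.0133). AHA1 exceeded HCH1 by 0.24 and 0.91 on the celastrol arrays and by 0.015 and 0.25 on the heat shock arrays, so the pair stood closest on heat shock replicate 1.

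SBA1 (YKL117W) encodes the yeast p23, which holds the closed ATP-bound form of Hsp90 and slows hydrolysis. SBA1 had log2 ratios of 1.19 and 1.05 after celastrol and of 0.65 and 0.41 after heat shock. Both celastrol arrays were above both heat shock arrays. SBA1 rose 2.18-fold after celastrol (1.12 ± 0.098, SD, n = 2; limma adjusted p = 0.0287). The mean after heat shock was 0.53 ± 0.17 (SD, n = 2; limma adjusted p = 0.103).

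STI1 (YOR027W), the yeast Hop, encodes the adaptor that holds Hsp70 and Hsp90 together and halts ATP hydrolysis while a client is passed on. STI1 had log2 ratios of 0.50 and 1.25 after celastrol and of 1.90 and 1.93 after heat shock. The heat shock arrays were nearly equal and higher, and the celastrol arrays differed from each other. Its mean of 0.87 ± 0.53 after celastrol (SD, n = 2) had a limma adjusted p of 0.0792. STI1 rose 3.77-fold after heat shock (1.92 ± 0.016, SD, n = 2; limma adjusted p = 0.0177).

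CDC37 (YDR168W) encodes the co-chaperone that brings protein kinases to Hsp90. CDC37 had log2 ratios of 0.90 and 1.48 after celastrol and of 1.22 and 0.45 after heat shock. The treatments overlapped, and each pair of replicates was spread widely. The mean was 1.19 ± 0.41 after celastrol (SD, n = 2; limma adjusted p = 0.0607) and 0.84 ± 0.54 after heat shock (SD, n = 2; limma adjusted p = 0.109). With median-centred arrays CDC37 was called after celastrol at an adjusted p of 0.0497.

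CNS1 (YBR155W) encodes an essential co-chaperone that binds Hsp90 through tetratricopeptide repeats. CNS1 had log2 ratios of −0.28 and 0.096 after celastrol and of 1.09 and 0.15 after heat shock. One high array, heat shock replicate 1, set the heat shock mean, and the celastrol values lay on either side of 0. The mean was −0.091 ± 0.26 after celastrol (SD, n = 2; limma adjusted p = 0.86) and 0.62 ± 0.67 after heat shock (SD, n = 2; limma adjusted p = 0.192).

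CPR6 (YLR216C) and CPR7 (YJR032W) encode cyclophilins, prolyl isomerases that dock on Hsp90 through tetratricopeptide repeats. CPR6 had log2 ratios of 1.36 and 2.20 after celastrol and of 2.30 and 2.79 after heat shock. All 4 values were high, and CPR6 had the highest heat shock mean of the 10 genes. It rose 3.43-fold after celastrol (1.78 ± 0.59, SD, n = 2; limma adjusted p = 0.0310) and 5.84-fold after heat shock (2.55 ± 0.34, SD, n = 2; limma adjusted p = 0.0133). CPR6 stood at place 70 of 5403 genes after celastrol and at place 24 after heat shock.

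CPR7 had log2 ratios of −0.32 and −0.42 after celastrol and of −0.027 and −0.24 after heat shock. All 4 values were slightly below 0, unlike those of CPR6. The mean was −0.37 ± 0.069 after celastrol (SD, n = 2; limma adjusted p = 0.192) and −0.14 ± 0.15 after heat shock (SD, n = 2; limma adjusted p = 0.592). CPR6 exceeded CPR7 by 1.67 and 2.61 on the celastrol arrays and by 2.33 and 3.03 on the heat shock arrays.

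**Figure D3:**
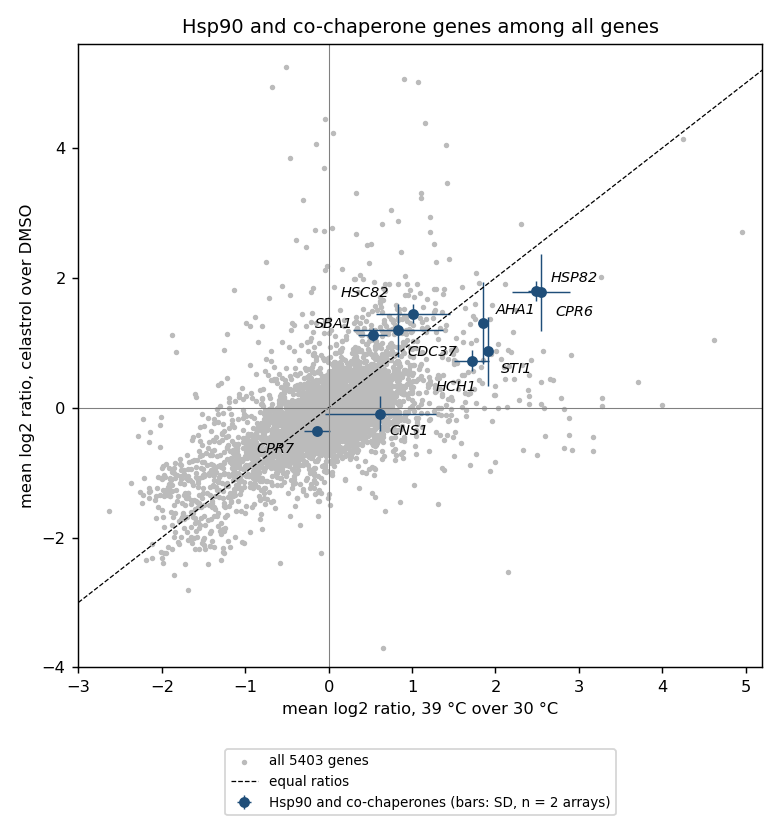
Mean log2 ratio after celastrol (vertical axis) against that after heat shock (horizontal axis) for all 5403 genes (grey) and the 10 genes (blue; bars are the SD over 2 arrays); the dashed line marks equal ratios. HSC82, SBA1 and CDC37 lie above the line, the other members below it, and CNS1 and CPR7 lie within the mass of grey points.

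By mean ratio the order after celastrol was HSP82, CPR6, HSC82, AHA1, CDC37, SBA1, STI1, HCH1, CNS1 and CPR7. After heat shock it was CPR6, HSP82, STI1, AHA1, HCH1, HSC82, CDC37, CNS1, SBA1 and CPR7. HSP82 and CPR6 took the first places in both orders and CPR7 the last, while STI1 and HCH1 stood ahead of HSC82 after heat shock and behind it after celastrol. Of the 9 steps in an order, 7 after celastrol and 5 after heat shock were no larger than the SD of the more variable gene. The steps that were larger lay below HCH1 and below CNS1 after celastrol, and below HSP82, STI1, HCH1 and SBA1 after heat shock. Across the 10 genes the mean ratios of the treatments had Pearson's r = 0.73 and Spearman's rho = 0.70, beside r = 0.57 and rho = 0.59 across all 5403 genes. These are descriptions across genes, which share arrays and dyes and are not independent replicates.

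The difference between treatments was tested for each gene as celastrol minus heat shock. By limma, 0 of the 10 genes passed, with 4 at an unadjusted p under 0.05, while 1.11% of all genes were called in either direction and 13.7% had an unadjusted p under 0.05. HCH1 differed by −0.99 ± 0.24 (SE; 95% interval −1.61 to −0.38; limma adjusted p = 0.18). STI1 differed by −1.05 ± 0.31 (SE; 95% interval −1.85 to −0.24; limma adjusted p = 0.261). HSP82 differed by −0.69 ± 0.22 (SE; 95% interval −1.26 to −0.12; limma adjusted p = 0.286). In the other direction SBA1 differed by 0.59 ± 0.23 (SE; 95% interval 0.012 to 1.17; limma adjusted p = 0.354). The intervals of these 4 genes, not adjusted for the number of genes, lie on 1 side of 0, while those of the other 6 include 0. With 1 array left out, the HCH1 difference ranged from −1.14 (without heat shock replicate 2) to −0.84 (without heat shock replicate 1).

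**Figure D4:**
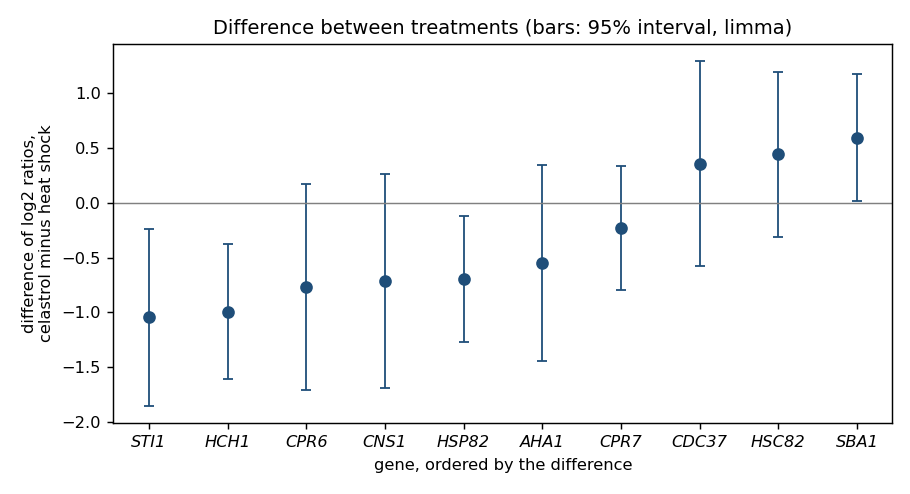
Difference of log2 ratios, celastrol minus heat shock (vertical axis), for the 10 genes ordered by the difference (horizontal axis); points are limma estimates and bars their 95% intervals. STI1 and HCH1 are lowest at −1.05 and −0.99 and SBA1 is highest at 0.59.

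The celastrol values lay below both heat shock values for 7 genes (HSP82, STI1, AHA1, HCH1, CPR6, CPR7 and CNS1), beside 28.9% of all genes. They lay above both for HSC82 and SBA1, beside 18.1% of all genes, and overlapped for CDC37. With median-centred arrays the lower group shrank to HSP82, STI1, HCH1 and CPR7, while HSC82 and SBA1 stayed above, beside 21.4% of all genes lower and 25.1% higher. With quantile-normalized arrays the lower group was HSP82, STI1, HCH1 and CNS1, and CDC37 joined HSC82 and SBA1 above, beside 23.0% of all genes lower and 25.2% higher. HSP82, STI1 and HCH1 were thus lower after celastrol, and HSC82 and SBA1 higher, under all 3 scalings, but the number of members above is near the share of all genes under each.

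Of 8 further genes of the Hsp90 machinery, 7 were measured on every array, and limma called 0 after either treatment (2 after celastrol and 3 after heat shock at an unadjusted p under 0.05). That unadjusted threshold was passed by 30.8% of all genes after celastrol and 30.4% after heat shock, so these counts are near the background. HSF1, for the heat shock factor, had log2 ratios of 0.54 and 1.12 after celastrol and of 0.78 and 0.83 after heat shock, with limma adjusted p = 0.0684 after celastrol and 0.0702 after heat shock. PPT1, for the phosphatase that acts on Hsp90, lay below 0 on every array, at −0.86 and −1.58 after celastrol and −1.495 and −0.38 after heat shock. Its lower values were on celastrol replicate 2 and heat shock replicate 1, where medians over probes without a gene were also lower (−0.44 and −0.62). Whether this array pattern shaped the PPT1 values was not tested. SGT1, for the kinetochore and ubiquitin ligase co-chaperone, had means of −0.0053 after celastrol and 0.40 after heat shock. TAH1 and PIH1, for the complex that assembles small nucleolar ribonucleoproteins with Hsp90, had means of 0.13 and −0.22 after celastrol and of 0.030 and −0.015 after heat shock. RVB2, for a helicase of that complex, had ratios of −0.61 and −0.46 after celastrol and of 1.37 and −0.45 after heat shock, so its heat shock arrays pointed in opposite directions. TOM70, for the mitochondrial import receptor that docks chaperones, had means of 0.24 after celastrol and −0.12 after heat shock.

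The Hsp70 system, which hands clients to Hsp90, had 5 of 10 genes that rose after celastrol and 4 after heat shock, with 0 that fell. Over all genes, 3.85% rose and 2.68% fell after celastrol, and 4.28% rose and 4.79% fell after heat shock. SSA1 (1.62 ± 0.67) and SSA2 (2.88 ± 0.60; both SD, n = 2), for the Hsp70 proteins abundant without stress, rose after celastrol and had means of 0.62 ± 0.066 and 0.83 ± 0.11 after heat shock (both SD, n = 2). SSA1 and SSA2 are near-identical copies, and their separate values are uncertain. SSA3, for a stress-inducible Hsp70, rose 2.06-fold after celastrol and 24.6-fold after heat shock, and was the list's 1 gene called in the difference (−3.58 ± 0.26, SE; limma adjusted p = 0.0156). SSA4, also inducible, rose 17.6-fold after celastrol and 19.0-fold after heat shock, and the exchange factor gene SSE1 rose 3.56-fold and 2.61-fold in that order. SSE2, for a further exchange factor, had a mean of 0.29 ± 0.62 after celastrol and rose after heat shock (1.74 ± 0.19; both SD, n = 2), and the difference was not called (limma adjusted p = 0.182). The J-domain genes YDJ1 and SIS1, which serve Hsp70, were not called, with means of 0.43 and −0.28 after celastrol and 0.61 and 0.66 after heat shock. FES1 and SNL1 were not called either, with means of −0.12 and −0.51 after celastrol and −0.19 and −0.62 after heat shock.

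Among 10 genes for Hsp90 clients 7 were measured on every array, with 0 called by limma after either treatment (2 after celastrol and 3 after heat shock at an unadjusted p under 0.05, again near the 30.8% and 30.4% of all genes). Their median log2 ratio was −0.14 after celastrol and −0.29 after heat shock. STE11, for a mating pathway kinase, had the lowest means, −2.14 ± 0.79 after celastrol and −1.42 ± 1.01 after heat shock (both SD, n = 2). Its ratios were −1.58 and −2.69 on the celastrol arrays and −2.14 and −0.70 on the heat shock arrays. Medians over probes without a gene were also lower on celastrol replicate 2 (−0.44, beside −0.26) and heat shock replicate 1 (−0.62, beside −0.10). Whether this array pattern shaped the STE11 values was not tested. The kinase gene SWE1 had means of −0.90 after celastrol and −0.87 after heat shock. Its ratios were also lower on celastrol replicate 2 (−1.14, beside −0.66) and heat shock replicate 1 (−1.02, beside −0.71). CDC28, for the cyclin-dependent kinase, was at −0.24 after celastrol and 0.54 after heat shock. GCN2, CMP2, KIN28 and CAK1 had means of 0.13, 0.085, 0.13 and −0.14 after celastrol. After heat shock their means were −0.31, 0.021, 0.095 and −0.29.

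Genes with a pattern most like HSP82 were sought by Euclidean distance over the 4 log2 ratios. Outside the 10 genes these were NCA3, TMA10, the aldehyde dehydrogenase gene ALD4, TMC1 and the phosphoglucomutase gene PGM2, at distances of 0.717 to 1.19. CPR6 was nearer to HSP82, at 0.512. The genes most like HSC82 were GSP2, RDL1, the proteasome core gene PUP1, YNL208W and FPT1, at distances of 0.26 to 0.467, while the nearest of the 10 genes, SBA1, was at 1.05. NCA3, the nearest to HSP82, had log2 ratios of 1.57 and 2.23 after celastrol and of 2.28 and 1.95 after heat shock. GSP2, for a Ran GTPase and the nearest to HSC82, had ratios of 1.29 and 1.75 after celastrol and of 0.63 and 1.18 after heat shock.

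The genes beside these on the chromosome were also read. Of the 20 protein-coding genes that flank the 10 in the RefSeq R64 gene order, 19 were measured. By limma 0 of them rose after either treatment, while 3.85% of all genes rose after celastrol and 4.28% after heat shock. After celastrol 1 fell, while 2.68% of all genes fell, and after heat shock 3 fell, while 4.79% of all genes fell. At an unadjusted p under 0.05, 1 was higher and 7 were lower after celastrol, beside 11.0% and 19.8% of all genes. At the same threshold 0 were higher and 6 lower after heat shock, beside 13.8% and 16.7% of all genes. The flanking genes had medians of −0.32 after celastrol and −0.21 after heat shock. Neighbours that start upstream on the other strand, read from the strand letter of the systematic names, were YAR1 beside HSP82, GEA1 beside CPR7, VPH2 beside SBA1 and RPB5 beside CNS1. YAR1, for a ribosome assembly protein, had ratios of −0.52 and −0.64 after celastrol and of 0.018 and −0.295 after heat shock, where HSP82 was high on all 4 arrays. CIN2, downstream of HSP82 on the same strand, fell after celastrol (−1.09 ± 0.21) and after heat shock (−1.91 ± 0.14; both SD, n = 2). CDC123, downstream of CPR6 on the same strand, had the highest flanking mean after celastrol (0.59 ± 0.045, SD, n = 2; limma adjusted p = 0.0904).

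**Figure D5:**
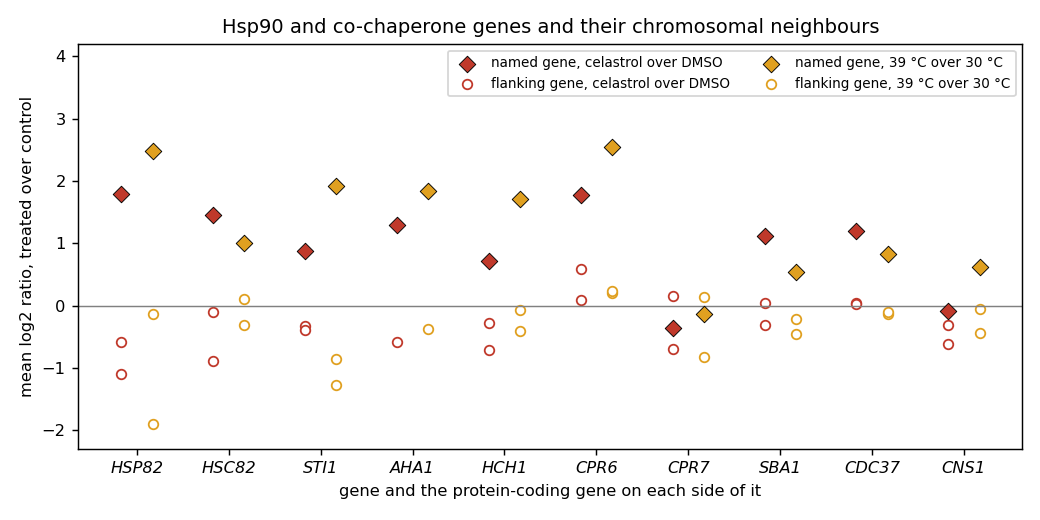
Mean log2 ratio of treated over control (vertical axis) for the 10 genes (filled diamonds) and the protein-coding gene on each side (open circles), with celastrol left and heat shock right at each position (horizontal axis). Flanking genes lie between −1.91 and 0.59, while HSP82 and CPR6 lie at 1.78 or above in either treatment.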

How the data were processed

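The deposited table holds 1 log2 ratio per probe and array for 6415 probes. Dyes were Cy5 for treated and Cy3 for control RNA throughout, per the labels, and per the series' design text duplicate values on a chip were averaged by the authors and set relative to the chip's median signal. The array software and any background correction are not stated in labels or headers, and signal over background is unknown. Precision is limited by the number of arrays and by their uneven spread. The SD over all probes was 0.93 and 0.58 on heat shock replicates 1 and 2, and 0.60 and 0.81 on celastrol replicates 1 and 2. Across genes the replicates had Pearson's r = 0.66 after heat shock and 0.85 after celastrol. Base 2 was read from heat shock replicate 1. There 929 pairs of values differed by the log2 of a ratio of whole numbers up to 12, within a tolerance of 2e-08. At shifted differences there were 14 pairs. The natural log gave 15 pairs beside 15 at shifted differences, and log10 gave 70 beside 17.

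Probes with 1 annotated gene (5619, all matched to the RefSeq R64 table by gene ID) were averaged per gene. Exact zeros, 4 to 47 per array, were taken as missing, and 5403 genes entered the fit. No coordinates are printed, since no build is named. The fit used lmFit and eBayes of limma 3.58.1 (R 4.3.3), with 1 mean per treatment, 2 residual and 3.12 prior degrees of freedom. Means were tested against 0 and against each other, with Benjamini-Hochberg adjustment over all genes. The procedure was run on simulated data with independent normal errors for each gene. Such errors hold no pattern shared across an array, so that run does not address shared patterns. Errors are the SD over 2 arrays or limma's SE. The p-values set a mean against a spread between arrays that was pooled over both treatments and moderated across all genes.

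All 10 members, called genes of 3 lists (HSF1, SGT1, PPT1 and the like; the Hsp70 system; clients) and the 5 nearest genes to HSP82 and HSC82 were named by rule. Uncalled list genes and flanking genes were named after their values were seen. RVB1 and CTF13 held an exact zero, and HAP1 and SLT2 share probes with other genes, so these list genes were not tested. The calcineurin gene on the client list is CMP2 in the annotation. Members and lists were chosen with earlier results of these data known. Alternatives changed the scaling, zeros, prior, array weights, probe average, replicate block and arrays used.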

Additional observations from a re-analysis of the deposited data

How the results depend on the processing

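The design has 2 arrays per treatment, no dye swap and 1 spread estimate shared by both treatments. Of the 10 genes, 5 were called after celastrol, and 8 with quantile normalization, with array weights or from the celastrol arrays alone. After heat shock 6 were called, and 0 from the heat shock arrays alone by limma (7 at an unadjusted p under 0.05). Leaving out 1 array gave 0 to 8 members after celastrol, 0 to 7 after heat shock and 0 to 1 in the difference. Over all genes, 353 were called after celastrol, 1135 with quantile normalization, 1243 with array weights and 1479 from the celastrol arrays alone. After heat shock 490 were called, 989 with quantile normalization, 216 with array weights and 0 from its arrays alone (1154 at an unadjusted p under 0.05). The difference had 60 calls, and 164 with quantile normalization. Leaving out 1 array gave 0 to 1502 genes after celastrol, 0 to 1557 after heat shock and 0 to 537 in the difference. Median-centred arrays split the celastrol calls into 249 higher and 92 lower, against 208 and 145 as deposited. Quantile normalization split them into 468 and 667, and the heat shock calls into 360 higher and 629 lower, against 231 and 259 as deposited. A member's ratio could change only with rescaled arrays or with an array left out, since the other alternatives left the ratios of the 10 as they were. No called member changed direction where its ratio could change. CNS1 after celastrol, not called, changed sign with median-centred arrays (0.026) and, with 1 array left out, ranged from −0.28 to 0.096. CDC37 in the difference, not called, ranged from −0.028 without heat shock replicate 2 to 0.74 without replicate 1. The causes were not tested.

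Replicate numbers I and II are shared between treatments, but nothing in the labels pairs the experiments, and the deviations of same-numbered arrays correlated at −0.31 across genes. With the number as a replicate block, limma called 65 genes and 1 member after celastrol, 30 genes and 2 members after heat shock, and 0 genes in the difference (524 at an unadjusted p under 0.05). The crossed replicate block, chosen after seeing the data, called 798 genes after celastrol, 849 after heat shock and 50 in the difference, with 7 members after either treatment.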
